A study of Mus musculus with 8 samples.

Results

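The genes described here are 10 genes of the ATF4 stress response: the sensor kinase Eif2ak4, the transcription factors Atf4, Atf5 and Ddit3, the metabolic targets Asns, Cth and Chac1, the feedback gene Trib3, and the mTORC1 restraints Sesn2 and Ddit4. They were taken by gene name from the deposited count table, and all 10 were among its 11911 genes. The set was put together because Asns, Cth and Trib3 were higher in every knockout library than in every control library. The genotype difference of these genes was therefore used to choose them, and it is given below as a description, with no p for any of them, and counts of these genes past a threshold are descriptions too.

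RNA had been measured in 8 libraries. The 4 controls, WT1 to WT4, came from Foxp3 YFP-Cre mice, and the 4 knockouts, KO1 to KO4, had the genotype Tdrd3 fl/fl/Foxp3 YFP-Cre. Naïve CD4+ T cells from spleens were cultured for 36 hours with TGF-β, antibodies to CD3 and CD28, and antibodies blocking IFN-γ and IL-4, which polarizes them toward induced regulatory T cells (iTregs). Both genotypes carry the YFP-Cre allele at the Foxp3 locus on a C57BL/6J background, and only the knockout mice carry floxed Tdrd3 alleles. The ages of the mice that gave these libraries are not stated. TDRD3 is a Tudor domain protein that reads methylated arginines and acts as a transcriptional coactivator. As a model the knockout has a limit: Cre is made only once Foxp3 is transcribed, so Tdrd3 is deleted during the culture and only in cells that turn on Foxp3. The harvested CD4+ cells were used for RNA, and no sort for YFP+ cells is named, so cells without deletion may be in every knockout library.

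In the integrated stress response, kinases such as GCN2, the product of Eif2ak4 and a sensor of uncharged tRNA, phosphorylate the initiation factor eIF2. General translation then slows, while the Atf4 mRNA is translated better because of short reading frames upstream of its coding sequence. ATF4 pairs with other bZIP proteins, mainly of the C/EBP family, and binds composite C/EBP-ATF elements in genes of amino acid synthesis, amino acid import and tRNA charging. In T cells, activation raises the demand for amino acids, and GCN2 and mTORC1 are the main sensors of their supply. Since ATF4 is controlled largely by translation, the level of Atf4 mRNA does not give that of the protein, and protein was not measured here.

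The composite element was searched for in the promoters because ATF4 acts through it on several of these genes. The motif was TGATGNAA, read on both strands, so that it appears as TTNCATCA on the other strand. The windows ran from 250 bases before to 50 bases after each RefSeq gene start, from a promoter table of build GRCm38.p6. Of the 10 genes, 9 were matched in this table by symbol, with 11 windows, and Cth was not matched. Asns, Chac1 and Trib3 each had 1 window with a match. Of all 32851 windows, 3.97% held the motif, and 2.67% of the 8929 other tested genes with a window did. Each match is shown with its flanks as 30 bases in the direction of the gene, 5′ to 3′, with the motif in capitals.
Asns: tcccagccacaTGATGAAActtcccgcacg
Chac1: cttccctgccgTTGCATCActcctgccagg
Trib3: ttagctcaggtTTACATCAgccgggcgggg
Each of these runs occurred once in GRCm39. The Asns run lies at chr6:7693214-7693243 on the minus strand, with the element at positions −23 to −16 from the RefSeq start and in the direction of the gene. In the GENCODE vM39 annotation it falls in the 5′ untranslated region of the canonical Asns transcript and in an exon of the long noncoding RNA gene 1700012J15Rik. The Chac1 run lies at chr2:119181519-119181548 on the plus strand, with the element at positions −193 to −186 from the RefSeq start, upstream of the canonical transcript and within an exon of another Chac1 transcript. The Trib3 run lies at chr2:152185948-152185977 on the minus strand, with the element at positions 15 to 22 after the RefSeq start, in the 5′ untranslated region. The elements of Chac1 and Trib3 read on the strand opposite to the gene. These matches are letters in a window, and binding of ATF4 was not measured.

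The counts of the listed genes summed to between 13258239 and 16001676 per library, and the normalization factors lay between 0.993 and 1.00. The lowest count of any of the 10 genes in any library was 160, so that all 10 lay far above 3 counts, or 0.188 to 0.2255 normalized CPM. Tdrd3 itself had 15.1 to 18.8 CPM in the libraries labelled WT1, WT2 and WT4, 9.95 in the library labelled WT3 and 10.7 to 13.7 in the knockout libraries. The library labelled WT3 therefore went against its label, since it held less Tdrd3 RNA than every knockout library, and the values of the 10 genes without it are given below. It also held 11.3 CPM of the CD8 T cell gene Cd8a, against 0.873 to 1.37 in the other control libraries and 0.436 to 1.15 in the knockout libraries. Foxp3 was at 93.8 to 122 CPM in the control and 77.2 to 105 in the knockout libraries, with the highest knockout value in KO2. Of 22 markers of other spleen cells 9 were among the listed genes and 6 were tested. They summed to between 39.8 and 63.6 CPM in the control and between 31.1 and 43.5 in the knockout libraries. Pecam1 was the largest part, with means of 27.5 and 24.2 CPM. Of the 6, 0 had a log2 fold change above 0, beside 50.6% of all tested genes. Nkg7, Cd8a and Cd8b1 were lower with an unadjusted edgeR P below 0.05 and at least 1.2-fold, as 3.47% of all tested genes changed in either direction. Their log2 fold changes were −0.73, −2.15 and −0.36. The 11 CD4 T cell and Treg markers were all tested and summed to between 5142.5 and 5384.9 CPM in the control and between 4948.6 and 5108.3 in the knockout libraries. Il2ra, the highest of them, had a mean of 2268.5 CPM in the control and 2075.6 in the knockout libraries. Of the 11 markers, 3 had a log2 fold change above 0, and the median was −0.06. An unadjusted edgeR P below 0.05 was found for 3, all lower in the knockout libraries, beside 9.3% of all tested genes in either direction. These were Il2ra, Foxp3 and Ikzf2, with log2 fold changes of −0.13, −0.31 and −0.14. For Il2ra every knockout library lay below every control library, whereas 4.89% of all tested genes had no overlap in either direction. With controls first, Cd4 was at 633 and 606 CPM and Cd3e at 156 and 146. Lck was at 539 and 537, Cd3d at 129 in both genotypes, and Cd5 at 272 and 279. In bulk RNA, fewer cells of a type and less RNA per cell cannot be told apart.

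The comparison between genotypes asks which RNAs change when Tdrd3 is deleted in cells that induce Foxp3. Asparagine synthetase, cystathionine gamma-lyase and the pseudokinase Trib3 were 1.30-fold, 1.43-fold and 1.22-fold higher in the knockout libraries, with no overlap between the genotypes. Atf4 mRNA differed by 1.02-fold and the target Chac1 was slightly lower in the knockout libraries, with overlap in both. Of the 10 genes, 9 had a higher mean in the knockout libraries, with a median log2 fold change of 0.13 beside 0.0013 over all 11317 tested genes. Among all tested genes 50.6% had a log2 fold change above 0. An edgeR adjusted p below 0.05 was reached by 3 of the 10 genes (Asns, Cth and Trib3), beside 0.265% of all tested genes in either direction and 0.0619% in the direction of higher knockout levels. With Ddit3 added, 4 passed the looser rule of an unadjusted P below 0.05 and a change of at least 1.2-fold, which 3.47% of all tested genes passed and 1.78% with a higher knockout level. The genotypes did not overlap for 3 of the 10 genes, as for 4.89% of all tested genes, and 2.25% of all tested genes had every knockout library above every control library. Nothing is read from these counts, because the set was chosen on the same difference.

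**Figure D1:**
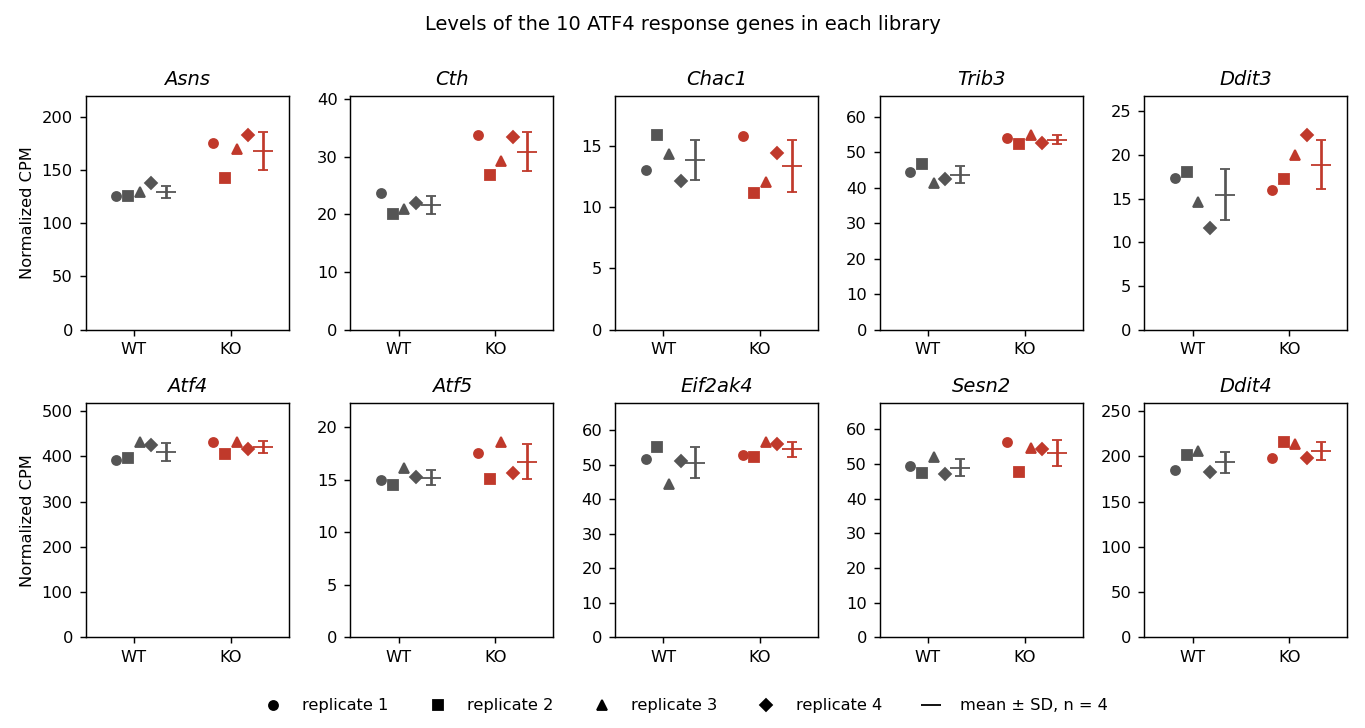
Normalized CPM (vertical axes, from 0) of the 10 genes in each library, with the control libraries (WT) in grey, the knockout libraries (KO) in red, a marker shape for each replicate number and the mean ± SD of 4 libraries beside them. The red and grey points of Asns, Cth and Trib3 do not overlap, whereas those of the other 7 genes do.

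Asns (ENSMUSG00000029752, chr6:7675169-7693254, minus strand, GRCm39) encodes asparagine synthetase, which makes asparagine from aspartate and glutamine. It had 126, 126, 129 and 138 CPM in WT1, WT2, the library labelled WT3 and WT4, and 176, 143, 170 and 183 in KO1 to KO4. The lowest knockout library, KO2 at 143, lay just above the highest control library, WT4 at 138, whereas the other 3 knockout libraries lay at 170 or more. The means were 129 ± 5.68 and 168 ± 17.6 (SD, n = 4 each), a log2 fold change of 0.38 (SE 0.0618). Asns ranked 330 of the 11317 tested genes in descending order of log2 fold change. On the other strand, its exons overlap those of 1700012J15Rik.

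Cth (ENSMUSG00000028179, chr3:157599885-157630714, minus strand) encodes cystathionine gamma-lyase, which releases cysteine in the last step of transsulfuration. Its levels were 23.6, 20.01, 20.9 and 21.9 CPM in the control libraries and 33.8, 26.9, 29.3 and 33.5 in KO1 to KO4. As for Asns, KO2 was the lowest knockout library and KO1 and KO4 were the highest. The mean was 21.6 ± 1.55 in controls and 30.9 ± 3.36 in knockouts (SD, n = 4 each). Its log2 fold change of 0.51 was the largest of the 10 genes, with a standard error of 0.0881. Without KO1 and KO4 the log2 fold change was 0.38, a smaller difference by more than the spread between replicates.

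Chac1 (ENSMUSG00000027313, chr2:119181710-119184862, plus strand) encodes an enzyme that breaks down glutathione and is a well known target of ATF4 and CHOP. It had 13.0, 15.9, 14.4 and 12.1 CPM in the control libraries and 15.8, 11.2, 12.0 and 14.4 in the knockout libraries. The genotypes overlapped throughout, with means of 13.9 ± 1.67 and 13.4 ± 2.14 (SD, n = 4 each) and a log2 fold change of −0.05 (SE 0.125). Of the 16 alternative settings 2 gave a value above 0, and without KO1 and KO4 the value was −0.26. With 160 to 219 counts per library, Chac1 was counted least often among the metabolic targets.

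Trib3 (ENSMUSG00000032715, chr2:152179342-152185952, minus strand) encodes a pseudokinase that is induced by ATF4 and CHOP and binds them in turn, which dampens their activity. Its levels were 44.3, 46.8, 41.2 and 42.4 CPM in the control libraries and 54.0, 52.3, 54.9 and 52.6 in the knockout libraries. The knockout libraries lay close together, and all of them lay above WT2, the highest control library. The means were 43.7 ± 2.43 and 53.5 ± 1.22 (SD, n = 4 each), a log2 fold change of 0.29 (SE 0.0597). Just inside the limit of the rule, the lowest knockout library stood against the highest control library at 143 against 138 CPM for Asns, 26.9 against 23.6 for Cth and 52.3 against 46.8 for Trib3. Just outside was Sesn2, for which 3 of 4 knockout libraries lay above the highest control library.

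Ddit3 (ENSMUSG00000025408, chr10:127126643-127132157, plus strand) encodes CHOP, a bZIP factor that acts with ATF4 and promotes cell death under lasting stress. It had 17.4, 18.1, 14.6 and 11.7 CPM in the control libraries and 15.97, 17.3, 19.99 and 22.3 in the knockout libraries. KO1 and KO2 lay within the control range, so that the difference rested on KO3 and KO4 at the top and WT4 at the bottom. The means were 15.4 ± 2.93 and 18.9 ± 2.84 (SD, n = 4 each), with a log2 fold change of 0.29 and a standard error of 0.130, larger than that of Trib3. Without WT4 it was 0.18. The exons of Ddit3 overlap a second gene model of the same name on the same strand, and those of Mars1, Mbd6 and Gm4189 on the other strand.

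Atf4 (ENSMUSG00000042406, chr15:80139385-80141742, plus strand) encodes the central factor of the response. It was by far the highest of the 10 genes, with 391, 396, 431 and 425 CPM in the control libraries and 431, 405, 431 and 416 in the knockout libraries. The means of 411 ± 20.03 and 421 ± 12.7 (SD, n = 4 each) differed by less than either SD, and the log2 fold change was 0.04 with a standard error of 0.0413. None of its 8 estimated counts was a whole number (within 0.0005), and for Asns 2 and for Eif2ak4 1 of 8 were, so at least some reads of these genes had been divided among genes. The other 7 genes had whole counts in 7 or 8 libraries. Atf5 (ENSMUSG00000038539, chr7:44461680-44466082, minus strand), a related factor with similar translational control that is linked to mitochondrial stress, had 14.9, 14.5, 16.1 and 15.2 CPM in controls and 17.6, 15.0, 18.6 and 15.6 in knockouts. KO1 and KO3 exceeded every control library and KO2 and KO4 did not. Its log2 fold change was 0.13 with a standard error of 0.0984. The exons of Atf5 overlap those of Il4i1 and Nup62 on the other strand.

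Eif2ak4 (ENSMUSG00000005102, chr2:118219099-118305715, plus strand) encodes GCN2, the kinase that responds to uncharged tRNA. It had 51.6, 55.1, 44.5 and 51.1 CPM in the control libraries and 52.9, 52.3, 56.5 and 56.1 in the knockout libraries. The knockout libraries spanned a narrow range that WT2 entered, and the library labelled WT3 was the lowest of all 8. The means were 50.6 ± 4.44 and 54.5 ± 2.14 (SD, n = 4 each), with a log2 fold change of 0.11 and a standard error of 0.0662, and without the library labelled WT3 the log2 fold change was 0.05. The exons of Eif2ak4 overlap those of Srp14 on the other strand.

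Sesn2 and Ddit4 are stress genes whose products restrain mTORC1, the kinase complex that couples amino acid supply to growth. Sesn2 (ENSMUSG00000028893, chr4:132219343-132237812, minus strand) encodes a leucine sensor, and had 49.4, 47.4, 52.1 and 47.0 CPM in controls and 56.3, 47.6, 54.5 and 54.2 in knockouts. KO2 alone among the knockout libraries lay within the control range. The log2 fold change of Sesn2 was 0.12 with a standard error of 0.0644. Ddit4 (ENSMUSG00000020108, chr10:59785491-59787656, minus strand) encodes REDD1, which acts through the TSC complex, and had 185, 201, 205 and 182 CPM in controls and 198, 216, 214 and 198 in knockouts. Its genotypes overlapped, with KO1 and KO4, the highest knockout libraries for Cth, being the lowest for Ddit4. The log2 fold change of Ddit4 was 0.09 with a standard error of 0.0485.

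**Figure D2:**
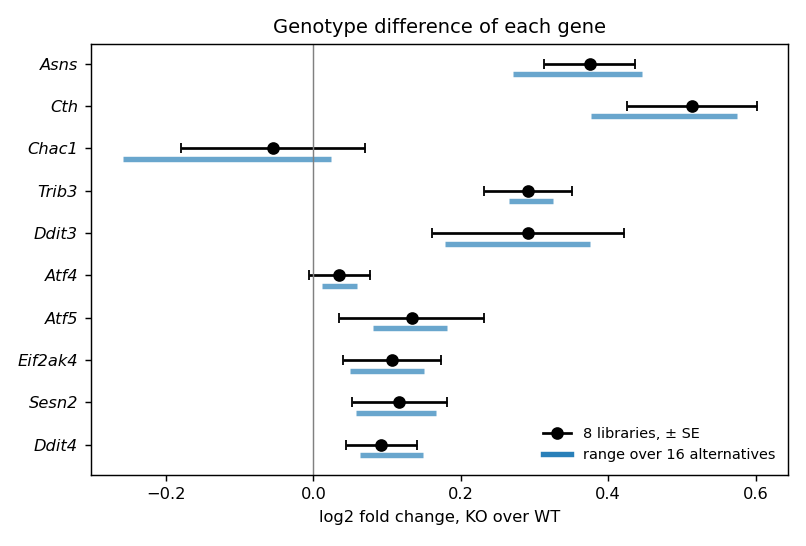
Log2 fold change of knockout over control libraries (horizontal axis) for each of the 10 genes, with black points and bars for the fit to 8 libraries ± SE and blue bars for the range over 16 alternative settings. The blue bar crosses 0 for Chac1 alone, and that of Cth runs from 0.38 to 0.58.

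For each of the 10 genes, the lowest and the highest difference over the 16 settings came from settings that left out libraries. Over these settings Asns ranged from 0.27 to 0.45 and Cth from 0.38 to 0.58 on the log2 scale, both lowest without KO1 and KO4 and both highest without KO2. Trib3 ranged from 0.27 to 0.33. Without the library labelled WT3 the log2 fold changes were 0.37 for Asns, 0.50 for Cth, 0.27 for Trib3, −0.04 for Chac1, 0.26 for Ddit3, 0.06 for Atf4, 0.16 for Atf5, 0.05 for Eif2ak4, 0.15 for Sesn2 and 0.12 for Ddit4. Among the smaller differences, leaving out WT1 took Atf4 from 0.04 to 0.01, leaving out KO3 took Atf5 from 0.13 to 0.08, and leaving out KO1 and KO4 took Sesn2 from 0.12 to 0.06 and Ddit4 from 0.09 to 0.15. The count of the 10 genes with an adjusted p below 0.05 was 0 without KO1, 0 without KO4, 1 when WT1, WT2 or the library labelled WT3 was left out, and 2 when WT4 or KO3 was left out. It was 3 with DESeq2 and with limma voom. KO1 and KO4 were also the knockout libraries with the lowest Foxp3, at 77.2 and 78.1 CPM, and KO2, the lowest for Asns and Cth, had the highest knockout value of Foxp3 at 105 CPM. The part of Foxp3 level or of the share of induced cells in the differences of Asns and Cth was not tested.

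Levels of different genes can be compared only per length of transcript, here as CPM per kilobase of the canonical GENCODE vM39 transcript in the control libraries. Atf4 had the highest level, 236 ± 11.5 CPM per kilobase, followed by Ddit4 at 110 ± 6.64 (SD, n = 4 each). Asns followed at 26.4, Trib3 at 20.9, Ddit3 at 15.8, Sesn2 at 14.04, Cth at 11.9, Eif2ak4 at 9.49, Atf5 at 8.36 and Chac1 at 8.34 CPM per kilobase. The control libraries of Ddit3 and Sesn2 overlapped in level, as did those of Eif2ak4 and Atf5 and of Atf5 and Chac1. When the length of all annotated exons was used instead, Atf4 and Ddit4 kept their ranks 1 and 2, but Ddit3 moved from rank 5 to rank 10, so the order below Ddit4 depends on the length that is assigned.

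The spread among libraries of 1 genotype is given as a description as well, because genes whose genotypes do not overlap, as Asns, Cth and Trib3, tend to vary little within a genotype for the size of their difference. The log2 CPM of each library was set against the mean of its own genotype. KO2 was the lowest knockout library for 8 of the 10 genes, the exceptions being Ddit3, lowest in KO1, and Ddit4, lowest in KO4. For Asns, KO2 lay 0.23 below the knockout mean on the log2 scale and KO4 lay 0.13 above it. The SD of Asns within genotypes was 0.12 (log2 CPM), beside a median of 0.06 in the 500 genes nearest to it in mean level, and 94.0% of those genes had a smaller SD. Ddit3 had an SD of 0.25 beside a median of 0.14, with 95.4% of its 500 nearest genes below it. Trib3 was at the other end, with an SD of 0.06 beside 0.09 and only 14.4% of its nearest genes below it. The other 7 genes had between 18.4% and 80.6% of their nearest genes below them.

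**Figure D3:**
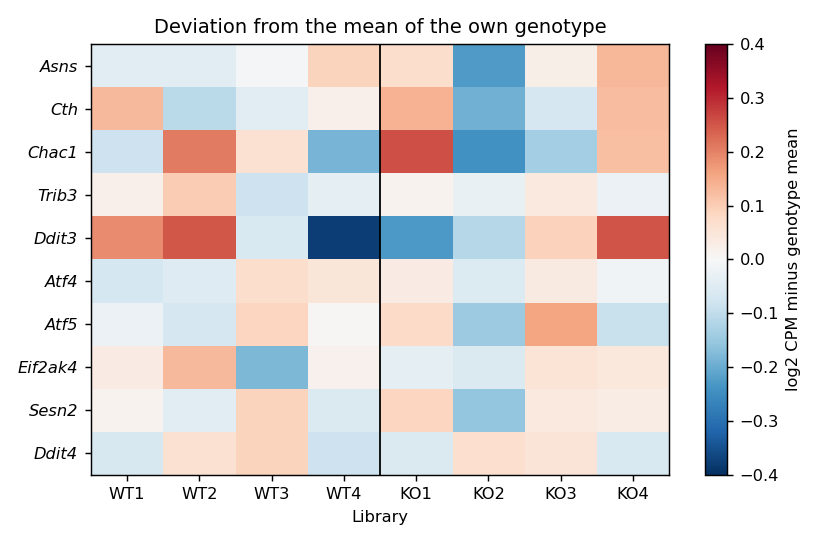
Deviation of log2 CPM from the mean of the own genotype (colour scale, red above and blue below the mean) for the 10 genes (rows) in the 8 libraries (columns, with a line between the genotypes). The KO2 column is blue for 9 genes and red for Ddit4, and Ddit3 is darkest in WT4, at −0.38.

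The deviations of the 10 genes did not all move together. Over the 45 pairs the median Pearson r across the 8 libraries was 0.09, with 29 pairs above 0. Over the 63794160 pairs of all other tested genes the median was −0.00041, with 31875917 pairs above 0. Asns and Cth had an r of 0.72, Atf4 and Atf5 an r of 0.75, and Atf5 and Sesn2 an r of 0.73. The highest value was that of Trib3 and Eif2ak4, at 0.82, whereas Trib3 had an r of −0.06 with Asns and −0.05 with Cth. The lowest was that of Cth and Ddit4, at −0.84. These are descriptions over 8 libraries that share 2 genotype means and differ in depth, and they carry no test.

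Among 8763 genes outside the set with a mean of at least 10 CPM, 5 were picked whose deviations were most like the mean standardized deviation of Asns, Cth, Trib3 and Chac1 across the 8 libraries. They were Tg, with an r of 0.986, Tubb6, a beta-tubulin, with 0.978, Tctn1, a ciliary gene, with 0.972, the proprotein convertase Furin, with 0.966, and the AP-1 gene Fosl2, with 0.963. Fosl2 had 40.7, 41.7, 29.4 and 36.3 CPM in the control libraries and 65.6, 37.2, 50.1 and 63.6 in the knockout libraries, and so shared with Asns the low KO2 and the high KO1 and KO4. With so many genes compared over 8 libraries, values of this size describe these libraries alone.

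The other genes of the pathway were followed in 10 lists with 160 tested genes. In edgeR's quasi-likelihood test none of the 160 had an adjusted p below 0.05, whereas 26 had an unadjusted P below 0.05, as did 9.3% of all tested genes. Of the 26, 23 were higher in the knockout libraries, 14.4% of the genes listed, beside 4.38% of all tested genes with such a P and a higher knockout level. DESeq2 gave an adjusted p below 0.05 for 4 of the 160 genes, Aldh1l2, Batf3, Gpt2 and Vegfa, and limma voom for 0. The looser rule of P below 0.05 and at least 1.2-fold was passed by 7 genes, 4.38% of the lists, beside 3.47% of all tested genes. All 7 were higher in the knockout libraries. Thus 4.38% of the list genes passed this rule with a higher knockout level, beside 1.78% of all tested genes. Over all 160 genes the median log2 fold change was 0.02. The lists were drawn up with earlier results of these libraries known.

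**Figure D4:**
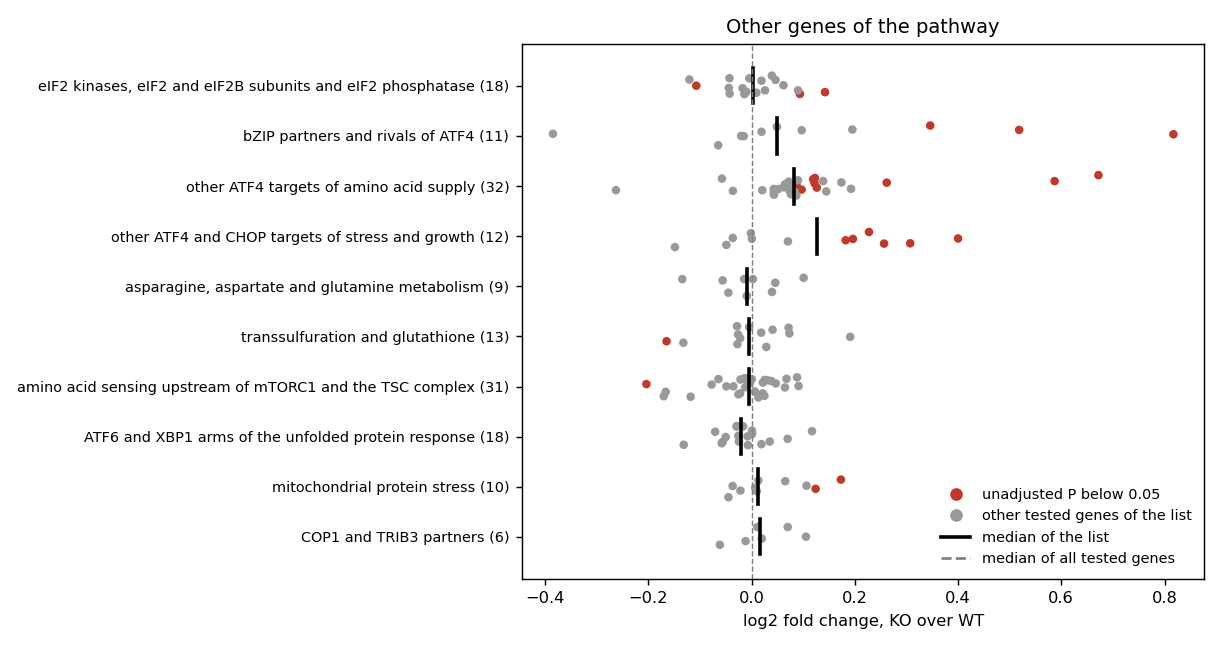
Log2 fold change of knockout over control libraries (horizontal axis) of the tested genes in 10 pathway lists (vertical axis, number of tested genes in parentheses), with genes of unadjusted P below 0.05 in red, the median of each list as a black bar and that of all tested genes as a dashed line. The medians of the 2 lists of other ATF4 targets lie at 0.08 and 0.13 and those of the other 8 lists between −0.02 and 0.05.

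The other ATF4 targets of amino acid supply, which serve serine and one-carbon synthesis, amino acid import and tRNA charging, held 32 genes. Of these, 29 had a log2 fold change above 0, as did 50.6% of all tested genes. An unadjusted P below 0.05 with a higher knockout level was found for 10, beside 4.38% of all tested genes, and with a lower one for none. In 8 of the 32 every knockout library lay above every control library, as in 2.25% of all tested genes. The median of the list was 0.08, and 0.05 without KO1 and KO4. Aldh1l2, a mitochondrial folate enzyme, had 10.95, 11.6, 10.7 and 13.2 CPM in the control libraries and 18.3, 14.5, 15.7 and 21.3 in the knockout libraries. Every knockout library lay above every control library, with KO2 again the lowest of its genotype. Its log2 fold change was 0.59 with a standard error of 0.124 and an edgeR adjusted p of 0.0503. The alanine aminotransferase Gpt2 was at 48.6 ± 2.10 and 58.3 ± 4.39 CPM (SD, n = 4 each, control first), a log2 fold change of 0.26 with an edgeR adjusted p of 0.0913. The asparaginyl-tRNA synthetase Nars1, which charges the amino acid that Asns makes, was at 411 ± 8.60 and 449 ± 14.4 CPM, a log2 fold change of 0.13 with an edgeR adjusted p of 0.189. The exons of Aldh1l2 overlap Nopchap1 on the other strand.

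Of 12 tested ATF4 and CHOP targets of stress and growth, 6 had an unadjusted P below 0.05, all with higher knockout levels. Among all tested genes 4.38% had such a P and a higher knockout level. In 4 of the 12 every knockout library lay above every control library, as in 2.25% of all tested genes. A log2 fold change above 0 was found for 8 of the 12, as for 50.6% of all tested genes. Named after their values were seen, Kdm7a, Bcl2l11, Herpud1 and Sqstm1 had log2 fold changes of −0.15, −0.05, −0.04 and −0.0012. Tnfrsf10b and Bbc3 had 0.07 and 0.0007, with unadjusted P above 0.05 in edgeR. The angiogenic factor Vegfa had 46.7, 49.3, 44.9 and 49.6 CPM in the control libraries and 54.9, 61.6, 54.0 and 56.9 in the knockout libraries. Here KO2 was the highest library rather than the lowest of its genotype. The log2 fold change of Vegfa was 0.26 with an edgeR adjusted p of 0.0848. Eif4ebp1, a repressor of cap-dependent translation, and Ero1a, an oxidase of the endoplasmic reticulum, had log2 fold changes of 0.20 and 0.18 with edgeR adjusted p of 0.146 and 0.164. The secreted stress factors Gdf15 and Fgf21 were not among the 11911 listed genes and so have no values here.

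Among the bZIP partners and rivals of ATF4, 11 of 12 were tested. An unadjusted P below 0.05 was found for 3, each at least 1.2-fold higher in the knockout libraries, beside 1.78% of all tested genes. Batf3, an AP-1 family factor, had 5.68, 5.67, 8.20 and 7.01 CPM in the control libraries and 13.8, 7.58, 11.2 and 14.4 in the knockout libraries. KO2 fell inside the control range and the other 3 knockout libraries lay above it. The log2 fold change of Batf3 was 0.82 with a standard error of 0.182 and an edgeR adjusted p of 0.0676. Atf3, a stress-induced factor downstream of ATF4, had a log2 fold change of 0.52 and an edgeR adjusted p of 0.205. Cebpb, which pairs with ATF4 and CHOP, had a log2 fold change of 0.35 and an edgeR adjusted p of 0.152.

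Upstream of ATF4, 18 genes for eIF2 kinases, eIF2 and its exchange factor and phosphatase had a median log2 fold change of 0.0025. The eIF2 subunit genes Eif2s2 and Eif2s3x had log2 fold changes of 0.14 and 0.09 (unadjusted P 0.0129 and 0.0359), and the kinase inhibitor gene Dnajc3 had −0.11 (unadjusted P 0.0396). After adjustment over all genes, edgeR gave p of 0.345, 0.496 and 0.499. The other eIF2 kinases, named after their values were seen, had log2 fold changes of 0.02 for Eif2ak1 (HRI), −0.01 for Eif2ak2 (PKR) and 0.06 for Eif2ak3 (PERK). The phosphatase gene Ppp1r15a (GADD34), also named after its values were seen and itself a target of ATF4, had a log2 fold change of −0.04.

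The neighbours of Asns and Cth in metabolism had medians close to 0. In asparagine, aspartate and glutamine metabolism 9 of 10 genes were tested, with a median log2 fold change of −0.01, and none had an unadjusted P below 0.05. The lowest P there was 0.0695 for the asparaginase gene Asrgl1, with a log2 fold change of −0.13. In transsulfuration and glutathione metabolism 13 of 15 genes were tested, with a median of −0.0044. The transsulfuration gene Cbs, named after its values were seen, was counted among the targets of amino acid supply instead. It was low, at means of 1.21 CPM in the control and 1.02 in the knockout libraries, with a log2 fold change of −0.26 (SE 0.418). Gclc, the catalytic subunit for the first step of glutathione synthesis, stood at −0.16 on the log2 scale (unadjusted P 0.0189, edgeR adjusted p = 0.407).

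The remaining lists likewise had medians near 0. Of 31 tested genes of amino acid sensing, mTORC1 and the TSC complex, 14 had a log2 fold change above 0, as did 50.6% of all tested genes. Among these 31, the Rag GTPase gene Rragd alone had an unadjusted P below 0.05 (log2 fold change −0.20, edgeR adjusted p = 0.277). In the ATF6 and XBP1 arms of the unfolded protein response, 6 of 18 genes had a log2 fold change above 0 and none had an unadjusted P below 0.05. Xbp1 was at 208 ± 10.0 and 200 ± 7.86 CPM (SD, n = 4 each, control first). Of 10 genes of mitochondrial protein stress, 2 had an unadjusted P below 0.05 with a higher knockout level, beside 4.38% of all tested genes. They were the protease gene Lonp1 and the chaperone gene Hspa9, with log2 fold changes of 0.17 and 0.12 and edgeR adjusted p of 0.267 and 0.288. For Hspa9 the lowest knockout library lay just above the highest control library, at 740.75 against 739.98 CPM. Such a lack of overlap, with higher knockout levels, was found in 2.25% of all tested genes. The median of this list was 0.01, or 0.07 without the library labelled WT3. Of 6 partners of COP1 and TRIB3 none had an unadjusted P below 0.05, and the median was 0.02.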

How the data were processed

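RNA from 8 cultures, 4 per genotype, had been sequenced after ribosomal RNA depletion (KAPA RNA HyperPrep with RiboErase). The authors aligned reads with STAR 2.7.8a to GRCm39 in Partek Flow, and deposited filtered estimated counts per gene, without normalization, from an E/M step that divides reads matching several genes. The annotation version and the strand setting of counting are not given in the sources used here. Methods name 3 replicates from independent mice, whereas the labels give 4 per genotype, and all 8 were used, so if libraries shared a mouse, the spread is partly technical. No 2 libraries of a genotype were copies of each other (chi-square per degree of freedom 2.59 to 6.32). The closest pairs were KO1 and KO4, at 2.59, and WT1 and WT2, at 2.70. Such values do not tell whether libraries shared a mouse, which was not tested.

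Estimated counts were rounded and tested for genotype alone, two-sided, with edgeR 4.0.16 (R 4.3.3; TMM factors, filterByExpr with a minimum count of 10, quasi-likelihood F-test), with Benjamini-Hochberg adjustment over 11317 genes; 594 low genes were left out. CPM are TMM-scaled, and within-genotype deviations were taken on log2 CPM after adding a prior count of 2. The procedure was tested on simulated data with 200 changed genes. Gene ends are printed as 1 base before the table's stop, since its length equals stop minus start. Alternatives comprised DESeq2 1.42.0, limma 3.58.1 voom, other scalings and filters, a block for replicate number and left-out libraries; list medians without the library labelled WT3, without KO2 and without KO1 and KO4 were added after seeing the data. Named were all 10 genes, in each list the genes with adjusted p below 0.05 or otherwise up to 3 of smallest P, and 5 genes of most like deviation. The 10 genes and the lists were chosen with earlier results of these data known.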

Additional observations from a re-analysis of the deposited data

How the results depend on the processing

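Over all 11317 tested genes, 30 had an adjusted p below 0.05 in edgeR, 81 in DESeq2, 3 without KO1 and KO4, and 6 to 162 when single libraries were left out, with the highest count without KO2. At an unadjusted P below 0.05 and 1.2-fold the count of 393 became 235 without KO1 and KO4. Of the 10 ATF4 response genes 3 passed the adjusted threshold, 0 without KO1 and KO4, and 0 to 3 when single libraries were left out. Of the 160 pathway genes 0 passed in edgeR, 1 without a filter on low counts and 1 with at least 10 counts required in every library (Aldh1l2 in both), 4 in DESeq2, and 0 to 5 when single libraries were left out, the 5 without KO2. At the looser rule, 7 pathway genes became 4 to 9. The cause of these changes was not tested. Apart from the replicate block below, the other alternatives left each of these counts within 1.5 times its value. The directions of 9 of the 10 genes held under all 16 alternatives, and Chac1 was above 0 in 2.

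The replicate numbers did not pair the libraries: deviations of same-numbered libraries correlated between −0.05 and 0.07. With a replicate block 87 of all tested genes, 3 of the 10 genes and 2 of the 160 pathway genes (Aldh1l2 and Batf3) had an adjusted p below 0.05. No control library correlated best with the knockout library of its own number. Of the knockout libraries only KO4 correlated best with the control library of its number, at 0.069 with WT4.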
